A study of Homo sapiens with 21 samples.

Results

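Of the 367900 accessible sites in the consensus set of this ATAC-seq experiment, 10430 (2.84%) were at least 3000 bases wide from the start to the end given in the site annotation. These broad sites were chosen on width alone, whatever their annotation. They covered 38.9 Mb and held 10.6% of the summed length of all sites. Their median width was 3508 bases against 734 bases for the shorter sites, 75.0% were under 4000 bases, 647 reached 5000 bases, and the widest measured 11902 bases. Width was set when the consensus was made over all groups, so no result below compares width between groups. Shares of broad sites by chromosome or gene, and the order by width, are given as descriptions. At the limit, sites at FOXD2 and XPNPEP1 were 3000 bases wide with Control levels of 3.29 ± 0.521 and 1.07 ± 0.167 CPM per kb (SD, n = 3), and sites at STAM and CABP2 were 2999 bases wide with 1.31 ± 0.0210 and 0.756 ± 0.229.

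The cells were SK-N-BE(2), an established human neuroblastoma line, collected 72 h after transduction with lentiviral short hairpin RNAs (shRNAs). Control cells received a non-silencing shRNA. Single silencing used shARID1A.2 or shARID1A.4 against ARID1A and shARID1B.2 or shARID1B.3 against ARID1B, and the combinations shARID1A/B.2.3 and shARID1A/B.4.2 targeted both genes. Each of the 7 groups had 3 libraries from 1 cell line, and nothing in the labels says whether these came from separate cultures, so that p-values measure the spread between these libraries. Accessible sites lay within 1000 bases of the start of 7 of 9 adrenergic marker genes and of 0 of 3 leukocyte, 1 of 4 Schwann and melanocyte, 2 of 3 epithelial and 1 of 4 mesenchymal marker genes, and ISL1 was among the adrenergic markers without one.

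ATAC-seq reads mark places where the Tn5 transposase can reach DNA. A narrow accessible site is typically an enhancer or promoter from which a nucleosome has been displaced, whereas a site of several kilobases may join neighbouring elements, span a CpG-island promoter with its flanks, or lie in DNA that yields many reads because it is repeated or present in many copies. ARID1A and ARID1B are alternative structural subunits of BAF, an ATP-driven remodeller that slides and evicts nucleosomes and is known mostly for keeping enhancers open. MYCN, the oncogene amplified in many aggressive neuroblastomas, is amplified in this line.

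To show what kinds of DNA the broad sites held, the central 300 bases of 6 of them are given on the plus strand of GRCh38, with every CG pair in capitals (a CG reads the same on both strands). The first belongs to the widest site, the next 2 to sites with large falls after combined silencing, and the last 3 to sites with large rises.
LOC101060341, chr7:55742483-55742782: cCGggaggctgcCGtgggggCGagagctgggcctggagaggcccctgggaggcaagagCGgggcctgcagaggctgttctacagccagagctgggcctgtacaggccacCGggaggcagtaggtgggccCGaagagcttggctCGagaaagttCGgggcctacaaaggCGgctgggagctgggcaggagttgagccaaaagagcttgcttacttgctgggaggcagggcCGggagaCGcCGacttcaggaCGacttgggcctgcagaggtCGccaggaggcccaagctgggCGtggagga
GYPC, chr2:126722071-126722370: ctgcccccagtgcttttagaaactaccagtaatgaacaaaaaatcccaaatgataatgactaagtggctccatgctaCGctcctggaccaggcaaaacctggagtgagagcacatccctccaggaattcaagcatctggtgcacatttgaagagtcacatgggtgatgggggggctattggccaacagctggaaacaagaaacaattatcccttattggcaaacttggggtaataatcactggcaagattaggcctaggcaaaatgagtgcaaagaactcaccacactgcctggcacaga
ALDH1A2, chr15:57948792-57949091: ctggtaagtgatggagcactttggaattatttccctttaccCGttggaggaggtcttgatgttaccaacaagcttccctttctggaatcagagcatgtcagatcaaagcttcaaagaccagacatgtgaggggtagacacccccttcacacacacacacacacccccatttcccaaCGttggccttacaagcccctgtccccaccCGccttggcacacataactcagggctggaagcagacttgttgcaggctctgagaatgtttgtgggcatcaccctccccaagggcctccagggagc
PKHD1, chr6:51953159-51953458: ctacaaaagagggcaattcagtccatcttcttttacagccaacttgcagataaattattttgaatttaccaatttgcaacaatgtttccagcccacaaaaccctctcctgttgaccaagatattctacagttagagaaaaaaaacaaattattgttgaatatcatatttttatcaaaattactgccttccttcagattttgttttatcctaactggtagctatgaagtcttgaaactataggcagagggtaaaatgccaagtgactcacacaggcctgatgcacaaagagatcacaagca
RAPGEF2, chr4:160126935-160127234: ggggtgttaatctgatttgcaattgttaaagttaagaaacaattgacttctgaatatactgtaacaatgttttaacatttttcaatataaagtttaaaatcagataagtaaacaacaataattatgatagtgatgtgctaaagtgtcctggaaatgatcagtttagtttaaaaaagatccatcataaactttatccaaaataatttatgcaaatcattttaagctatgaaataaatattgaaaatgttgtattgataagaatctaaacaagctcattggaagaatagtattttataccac
LPHN1, chr19:14206265-14206564: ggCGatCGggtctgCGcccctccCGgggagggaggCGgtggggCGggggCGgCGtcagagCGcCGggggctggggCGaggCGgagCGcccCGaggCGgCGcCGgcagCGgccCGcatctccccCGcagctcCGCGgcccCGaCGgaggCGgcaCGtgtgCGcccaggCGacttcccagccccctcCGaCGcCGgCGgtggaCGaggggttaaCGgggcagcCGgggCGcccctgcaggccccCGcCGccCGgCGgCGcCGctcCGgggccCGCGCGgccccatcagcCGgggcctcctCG
These windows held 15, 1, 3, 0, 0 and 48 CG pairs, in the order printed. Over the same central 300 bases, the median number of CG pairs was 3.00 in the 1514 broad sites that closed, 13.0 in the 548 that opened and 4.00 in those not called. The LPHN1 window is a CpG-rich promoter, and the PKHD1 and RAPGEF2 windows have none of that character although these sites rose too.

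Most broad sites were not strongly accessible. Their median Control level was 1.28 CPM per kb, where CPM is the read count relative to the scaled library total and division by width allows sites to be compared. The plot of width against Control level shows a dense band near this value at all widths, from which a smaller set of sites rose. Of the 10430 sites, 93 exceeded 20 CPM per kb and 45 of those stood in 1 block on chromosome 2. By annotation, 4630 (44.4%) were intergenic, 4569 (43.8%) intronic, 588 (5.64%) promoters, 485 (4.65%) exonic and 157 (1.51%) at gene ends. Among shorter sites, 48.8% were intergenic, 43.1% intronic and 3.38% promoters. The median distance to the nearest transcription start site (TSS) was 38.6 kb for broad and 51.5 kb for shorter sites, and 5813 of 26788 genes were nearest to at least 1 broad site.

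**Figure D1:**
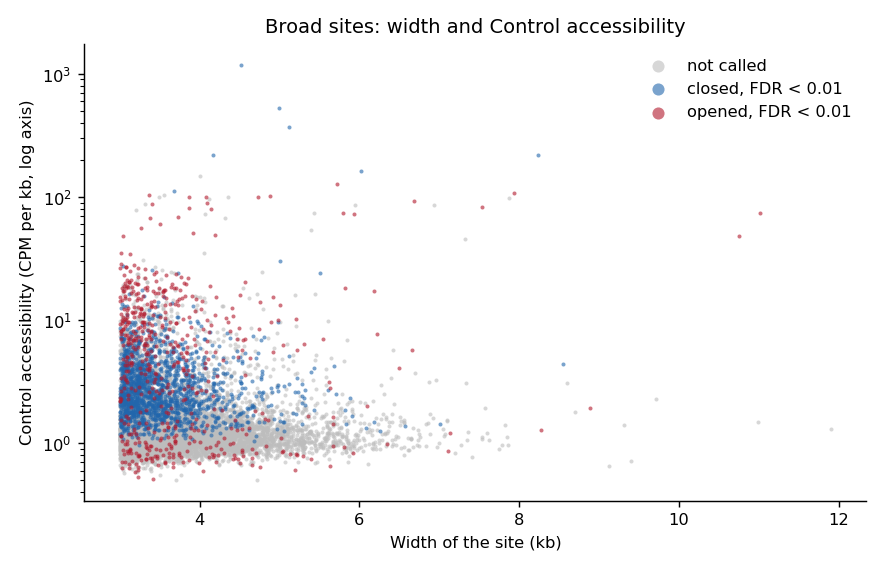
Each point is 1 broad site, with its width in kb on the x axis and its mean Control accessibility in CPM per kb (log axis, 3 libraries) on the y axis; blue points closed and red points opened after combined silencing (edgeR, FDR under 0.01). Most sites lie near 1.28 CPM per kb, and the points above 20 CPM per kb include the 45 sites of the block on chromosome 2.

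The 10 broadest sites, taking 1 per nearest gene, were of several kinds. The widest lay near LOC101060341 on chromosome 7 (chr7:55736681-55748583, intergenic, 61.6% GC). Its Control libraries measured 1.31, 1.27 and 1.33 CPM per kb, shARID1A/B.2.3 measured 1.48, 1.21 and 1.51, and shARID1A/B.4.2 measured 1.43, 1.59 and 1.48. The groups overlapped and no change was called (log2 change 0.15, SE 0.09, FDR 0.237). Near-identical DNA was present here: 74.3% of the 20-base words of this site, whose central window is printed above, occurred in another broad site, and 45.8% occurred in the site at LOC102723533, also on chromosome 7 (chr7:51382350-51393342), which was 10992 bases wide. How reads were placed between such copies was not tested, and the levels of both sites are given with that limit. The site at RP11-614F17.2 on chromosome 4 (9118 bases) repeated itself, with 74.6% of its 20-base words present more than once within it, against a median of 0 over all broad sites. The site at ANKRD20A11P on chromosome 21 shared 26.1% of its words with a single broad site at ZNF519, and the site at LOC102723891 lay on an unplaced contig. In all, 28 of the 151 sites of 6000 bases or more (18.5%) had over 50% of their words in another broad site, against 184 of 7818 (2.35%) of those under 4000 bases.

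Of the 10 broadest, 3 rose after combined silencing and none fell; the other 7 changed by 0.10 to 0.27 on the log2 scale without passing the test. SKOR1, a transcriptional corepressor gene, carried a site of 8887 bases (chr15:67820345-67829232, annotated to an exon and 64.2% GC) with next to no sequence shared with other broad sites (0.406% of its words). SKOR1 measured 2.05, 1.47 and 2.22 CPM per kb in Control, 2.60, 1.81 and 2.52 in shARID1A/B.2.3, and 2.66, 2.34 and 2.69 in shARID1A/B.4.2. These groups overlapped through the low second library of shARID1A/B.2.3, and the fitted change was 0.34 (SE 0.10, FDR 0.00793). The other 2 that rose, at MYCNOS (11017 bases, chr2:15949328-15960345) and LOC101928129 (10757 bases, chr2:16344847-16355604), belonged to the block around MYCN, and both turned to falls with abundance-trended offsets (-0.56 and -0.39), as MYCNOS did with TMM factors from promoter sites (-0.03). The remaining members of the 10 were at LOC102724285 on chromosome 2 and LOC283177 on chromosome 11, at 0.719 and 1.41 CPM per kb in Control.

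Broad sites were unevenly spread over the chromosomes. They made up 4.89% of the sites on chromosome 11, 4.02% on chromosome 2 and 3.48% on chromosome 7, whereas the other autosomes and chromosome X lay between 1.24% and 2.75%. These 3 chromosomes held 36.1% of all broad sites and 24.9% of all sites. The excess stood in parts of each chromosome, with bounds set after the values were seen: 7.65% of sites were broad in the first 40 Mb of chromosome 2 against 2.88% in the rest, 6.07% from 60 Mb onward on chromosome 11 against 2.42% before it, and 6.70% from 140 Mb onward on chromosome 7 against 2.71% before it. In windows of 5 Mb with at least 100 sites, the median share was 2.13%, and the highest, 12.4% (167 of 1343 sites), was at 15 to 20 Mb on chromosome 2, followed in number by 130 to 135 Mb on chromosome 11 (143 of 1332 sites, 10.7%). Within the broad sites of these parts, read density was close to that of broad sites elsewhere. The medians were 1.38, 1.3 and 1.24 CPM per kb on chromosomes 2, 11 and 7 against 1.28 on all other chromosomes. They describe called sites and not the reads of the whole parts. Sites of all widths also lay closer together in these parts than in the rest of each chromosome. Chromosome 2 had 9936 sites in its first 40 Mb against 31740 in the rest. Chromosome 11 had 17038 from 60 Mb onward against 8133 before it. Chromosome 7 had 4777 from 140 Mb onward against 19949 before it. DNA copy number was not measured here, and its part in these shares and site counts was not tested.

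**Figure D2:**
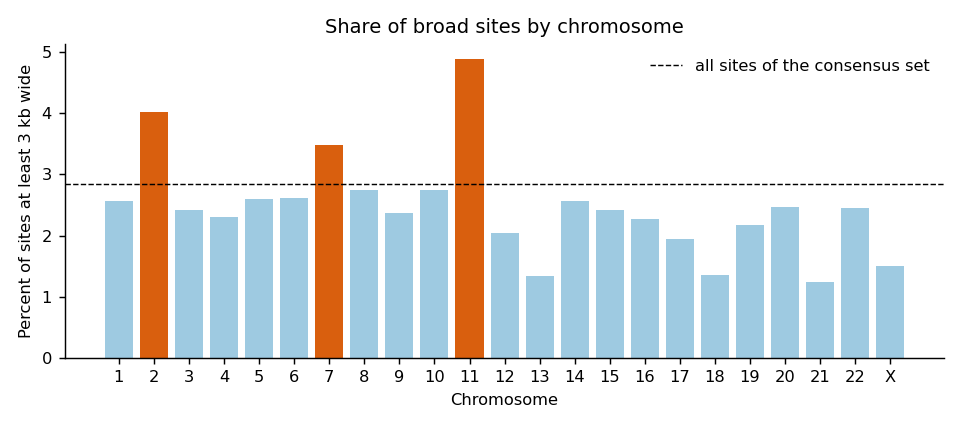
Bars give the percent of each chromosome's sites that are at least 3 kb wide, and the dashed line marks 2.84%, the share among all sites. Chromosomes 2, 7 and 11 (orange) stand above the line, at 4.02%, 3.48% and 4.89%.

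The same regions supplied the genes nearest to the most broad sites. CNTN5, which encodes a neuronal contactin adhesion molecule, had 33 over 2.00 Mb of chromosome 11, of which 17 were intronic. Next came JRKL-AS1 with 32 on chromosome 11, MYADML with 27 on chromosome 2, and MIR548AD with 25 on chromosome 2. These sites were of low density: the medians per gene were 1.05 to 1.21 CPM per kb, and no site of these 4 genes exceeded 2.34. After combined silencing 1 site each of CNTN5, JRKL-AS1 and MYADML closed, 1 of MYADML opened, and none of MIR548AD was called, where 14.5% of all broad sites closed and 5.25% opened (10.3% and 3.43% of all tested sites). Few broad sites of such density were called anywhere. From 0.986 to 1.16 CPM per kb 0.623% of broad sites closed and 1.15% opened, and from 1.16 to 1.45 these shares were 5.47% and 1.34%. Over the 4 genes, the median log2 changes ran from 0.04 to 0.17.

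The densest broad sites stood in a single block of 481 kb on chromosome 2 (chr2:15939562-16420755), here called the block around MYCN. It began close to the start of MYCN and extended from there toward higher coordinates. The block held 45 broad sites of 45.3 to 1185 CPM per kb in Control, with a median of 88.1, and these covered 47.8% of it. Broad sites elsewhere reached at most 48.3 CPM per kb. The 33 broad sites between 15 Mb and the block did not exceed 3.79 CPM per kb, and the median of the nearest 22 beyond the block was 1.14. The broad sites of the block took 2.98% ± 0.28 (SD, n = 3) of the reads in all consensus sites in Control libraries. All broad sites together took 11.1% ± 0.32, and those of the block made up 0.591% of their length. The 49 shorter sites in the block, with a median of 90.8 CPM per kb, are not part of the 2.98%. The densest site covered the start of MYCNOS, the antisense gene that overlaps the start of MYCN (chr2:15939562-15944082), and measured 1272, 1031 and 1251 CPM per kb in Control, 1024, 806 and 1027 in shARID1A/B.2.3, and 1038, 1035 and 1084 in shARID1A/B.4.2. Control replicate 2 lay below the other Control libraries and inside the range of the combinations, and the fitted fall was small (log2 change -0.24, SE 0.06, FDR 3.39e-04).

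Within the block, the sites moved both ways. Of the 8 sites at or above 120 CPM per kb, 6 closed and 1 opened, with a median log2 change of -0.37; of the other 37, 1 closed and 22 opened, with a median of 0.20. In the highest of 5 Control density classes, which holds these sites, 40.6% of broad sites closed and 17.0% opened. The split at 120 CPM per kb was chosen after the values were seen and was not tested. The largest fall was at chr2:16223138-16228137, a site of 530 CPM per kb nearest to LOC101928129 (-0.60, SE 0.06, FDR 3.73e-15). The rise of the less dense sites depended on the scaling: their median was -0.03 when TMM factors were taken from promoter sites and -0.45 with abundance-trended offsets, under which all 45 closed. The dense sites stayed below the less dense ones with these 2 scalings, with medians of -0.60 and -1.26. It also differed between the combinations, at 0.31 with shARID1A/B.2.3 and 0.10 with shARID1A/B.4.2. Control replicate 2 had the lowest share of reads in the broad sites of the block among Control libraries. It was 2.65% of its reads in all consensus sites, against 3.12% and 3.16%.

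**Figure D3:**
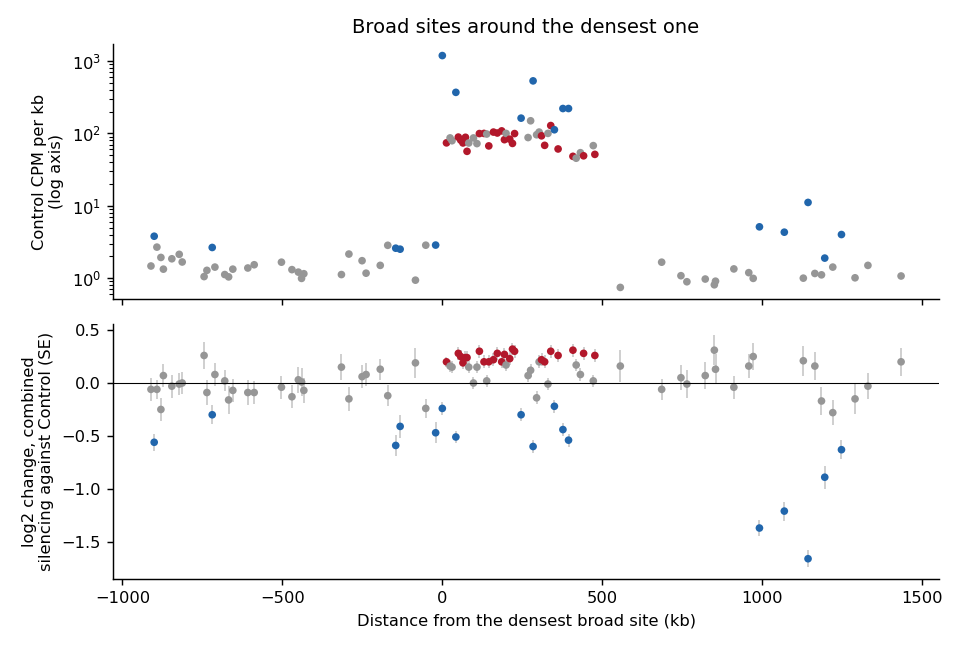
Broad sites of chromosome 2 are placed by their distance in kb from the densest one; the upper panel gives mean Control CPM per kb (log axis, 3 libraries) and the lower panel the log2 change after combined silencing with its standard error. Blue sites closed, red sites opened (FDR under 0.01) and grey sites were not called. The 45 sites of the block stand at 45.3 CPM per kb or more. Their neighbours stand at 3.79 or less on the left and at 11.1 or less on the right.

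To ask whether broad sites depend on ARID1A and ARID1B, each silenced state was compared with Control. After combined silencing, 1514 broad sites closed (14.5%) and 548 opened (5.25%) at a false discovery rate (FDR) under 0.01 in edgeR, where 10.3% of all 357029 tested sites closed and 3.43% opened. All 10430 broad sites were tested. Closing sites fell by a median of 0.60 on the log2 scale and opening sites had a median of 0.42, and the median over all broad sites was 0.00, against 0.03 over all tested sites. A fall of at least 1 on the log2 scale was found at 201 broad sites (1.93%) and a rise of that size at 3 (0.0288%). Changes of that size were not counted over all tested sites. In 1467 broad sites (14.1%) all 6 combination libraries lay below all 3 Control libraries, and in 614 (5.89%) all 6 lay above; over all tested sites these shares were 10.8% and 4.85%. Without Control replicate 2 the share opened was 3.19%.

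Both combinations gave more closing than opening at broad sites, except that with abundance-trended offsets the balance turned for shARID1A/B.2.3, at 11.8% closed and 13.6% opened. With TMM factors from all sites, 1615 closed with shARID1A/B.2.3 (15.5%; 10.4% of all tested sites) and 386 opened (3.70%; 2.85%). With shARID1A/B.4.2, 1024 closed (9.82%; 7.37%) and 646 opened (6.19%; 3.97%), and 4.07% opened without Control replicate 2. Set directly against each other, 760 broad sites were lower (7.29%; 3.79% of all tested sites) and 135 higher (1.29%; 1.43%) with shARID1A/B.2.3 than with shARID1A/B.4.2. Single silencing called fewer sites. After silencing of ARID1A, 799 closed (7.66%; 5.37% of all tested sites) and 254 opened (2.44%; 1.67%). For ARID1B these were 539 closed (5.17%; 3.53%) and 212 opened (2.03%; 1.39%). Without Control replicate 2, the shares opened were 0.738% for ARID1A and 0.834% for ARID1B. Combined silencing was directly lower than the 4 single-shRNA groups at 1011 broad sites (9.69%; 6.85%) and higher at 179 (1.72%; 0.969%), and at 1.01% when shARID1A/B.4.2 replicate 1 was left out.

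Broad sites had more reads than shorter ones. A broad site had a median of 77 to 203 reads per library and a shorter site 15 to 42, and the median standard error of the log2 change was 0.12 against 0.23. Set against shorter sites of like Control CPM per kb (5 classes, weighted by the number of broad sites in each), 14.5% of broad sites closed against 9.94% and 5.25% opened against 3.46%, and the averages of the 5 class medians of the log2 change, weighted in the same way, were -0.03 and 0.00. Set against shorter sites of like total Control CPM, which are much denser sites, the order turned: 34.5% of the shorter sites closed and 10.6% opened. Among promoters of like density, 5.27% of 588 broad ones and 5.29% of shorter ones closed. These shares carry no test, and their size followed the choice of what was held alike.

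The share of broad sites called differed widely with their accessibility in Control. In the lowest of the 5 density classes (0.503 to 0.986 CPM per kb), 1 of 2086 broad sites closed and 5.08% opened. In the 3 classes above it 0.623%, 5.47% and 25.8% closed, and in the highest class (above 2.34 CPM per kb) 40.6% closed and 17.0% opened. Shorter sites of the same classes closed at 0.0283%, 0.247%, 1.59%, 9.67% and 38.2%. In the highest class the median log2 change was -0.12 for broad and -0.26 for shorter sites, and in the lowest 0.15 and 0.30. The Control libraries set both the class and the change, so their own error enters the slope over the classes, and it enters more for shorter sites, which have fewer reads, so that the smaller medians of broad sites at both extremes cannot be told apart from this error. With classes on the mean of all 21 libraries, 14.5% of broad and 9.58% of like shorter sites closed. Summed over the fourth class, the log2 level relative to Control was -0.17, -0.27 and -0.18 in shARID1A/B.2.3 and -0.11, -0.12 and -0.10 in shARID1A/B.4.2, while the Control libraries were at 0.04, -0.08 and 0.04. All 6 combination libraries were below the Control libraries in that class. The same held for its shorter sites, at -0.18 to -0.14 against -0.03 to 0.02 in Control. Other classes differed for broad sites. In the highest class the combination libraries (-0.16 to 0.02) overlapped with Control (-0.13 to 0.07), and in the lowest they lay above it (0.13 to 0.25 against -0.02 to 0.03).

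**Figure D4:**
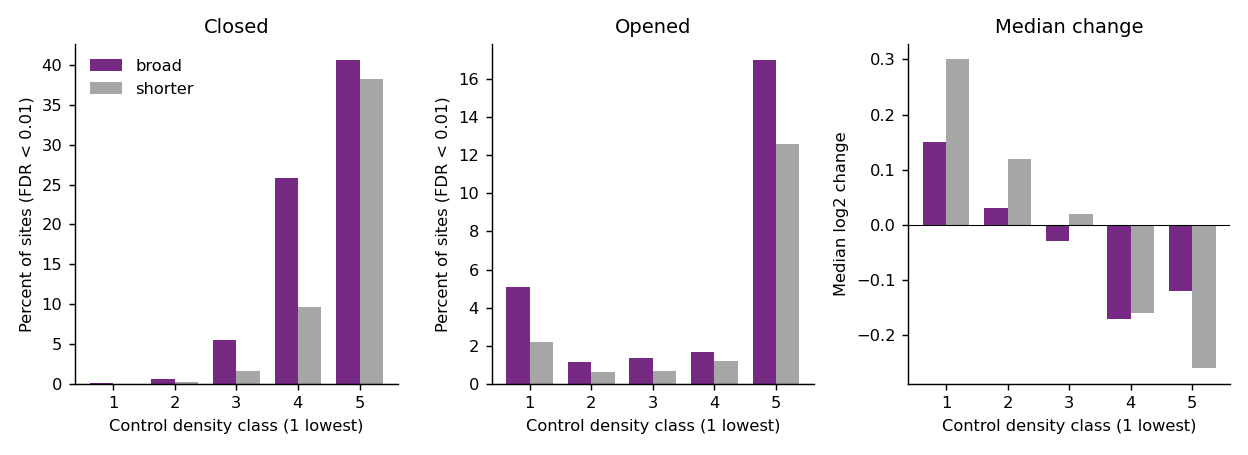
Broad sites (purple) and shorter sites of the same Control density (grey) in 5 classes of Control CPM per kb, with bars for the percent closed, the percent opened and the median log2 change after combined silencing against Control. Closing rises from 0.0479% to 40.6% of broad sites over the classes, and the median changes of broad sites lie nearer to 0 than those of shorter sites in the lowest and highest class.

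Wider sites closed less often. The share closed was 17.0% at 3000 to 3500 bases, 15.3% up to 4000, 9.67% up to 5000, 6.65% up to 6000 and 5.30% (8 of 151) beyond, and the share opened was 5.34%, 5.13%, 4.73%, 5.65% and 9.93%. Median Control density along this order was 1.32, 1.29, 1.22, 1.18 and 1.26 CPM per kb. Closing was steep over nearby densities, at 0.623% of broad sites from 0.986 to 1.16 CPM per kb and 25.8% from 1.45 to 2.34. Closing by width within a density class was not counted. Other traits also differed along the order by width. Sites with over 50% of their 20-base words in another broad site made up 2.35% under 4000 bases and 18.5% from 6000 bases. Several of the widest sites also lay in the block around MYCN, where rises depended on the scaling. The order by width is a description, and what lay behind it was not tested. By annotation, introns closed most often (779 of 4569, 17.0%), then gene ends (15.3%), intergenic sites (13.7%) and exons (9.28%). Shorter sites closed in the same order, at 11.9%, 9.51%, 9.27% and 6.86%, so the order was not particular to broad sites. Promoters stood apart, with 31 of 588 closed (5.27%) and 176 opened (29.9%), and a median log2 change of 0.18. With TMM factors from promoter sites, 105 broad promoters closed and 48 opened with a median of -0.05, and with GC offsets 66 closed and 88 opened, so the direction at promoters rests on the scaling. The promoter TMM factors moved the median over all tested sites from 0.03 to -0.20, and the broad promoters lay above that shifted median. Shorter promoters stood apart too, with 4.19% closed and 33.6% opened with TMM factors from all sites. Sites not at promoters closed more often than they opened with each of these scalings.

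Sequence composition followed the same split. Broad sites that opened had a median GC content of 59.9% and a CpG observed-to-expected ratio of 0.639, against 46.0% and 0.206 for those that closed and 47.6% and 0.224 for those not called. Away from promoters, opened sites still had 57.1% GC. The letters GGGCGG (SP/KLF), counted on both strands, occurred in the central 300 bases of 37.6% of opened, 7.13% of closed and 11.7% of all broad sites. The GATA-factor letters AGATAA occurred there in 19.4% of closed, 6.39% of opened and 15.1% of all broad sites, and CAGATG (an E-box) in 26.7%, 14.4% and 23.1%. For TGANTCA (AP-1) the shares were 9.97%, 6.20% and 8.61%. In the shorter sites that closed, AGATAA was in 24.9%, CAGATG in 33.2% and TGANTCA in 14.5% of central windows, more than in broad ones that closed. These are counts of letters, which vary with GC content, and not of bound factors.

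Falls were larger than rises at single sites. Among broad sites called in the average and with each combination, with no overlap between the 6 combination and the 3 Control libraries, 851 qualified as falls and 168 as rises. This joint rule was not counted over all tested sites. Without the calls, all combination libraries lay below Control at 14.1% of broad and 10.8% of all tested sites, and above at 5.89% and 4.85%. An intergenic site near GYPC, the glycophorin C gene of the red cell membrane, had the largest fall (chr2:126720500-126723940, 3440 bases). Control measured 7.79, 7.87 and 6.42 CPM per kb, shARID1A/B.2.3 measured 1.40, 1.51 and 1.52, and shARID1A/B.4.2 measured 1.48, 1.59 and 1.63. The combinations lay far below Control and close to each other (log2 change -2.27, SE 0.09, FDR 6.31e-37). The single shRNAs also lay below Control, with means of 2.14 ± 0.245 (shARID1A.2), 1.79 ± 0.147 (shARID1A.4), 3.14 ± 0.302 (shARID1B.2) and 1.66 ± 0.178 (shARID1B.3), and the combinations were lower than the single groups by a further log2 difference of -0.48 (FDR 9.89e-07).

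The site nearest to LOC101929620 on chromosome 9 (chr9:31773890-31777310, intergenic, distance to the TSS -394110 bases) fell from 7.65, 8.16 and 6.75 CPM per kb to 1.52, 1.85 and 1.54 in shARID1A/B.2.3 and 1.62, 1.40 and 1.63 in shARID1A/B.4.2 (log2 change -2.23, FDR 9.04e-37). Here ARID1A silencing took accessibility further down than ARID1B silencing, at -1.62 and -0.81 against Control, without a direct test between them; 28.6% of its 20-base words occurred in other broad sites, and the placement of its reads was not tested. Near ALDH1A2, which encodes a retinaldehyde dehydrogenase of retinoic acid synthesis, an intergenic site (chr15:57947159-57950723) measured 4.78, 3.67 and 4.62 in Control, 1.05, 1.04 and 1.09 in shARID1A/B.2.3 and 1.42, 1.43 and 1.25 in shARID1A/B.4.2 (-1.85, FDR 7.90e-29). The single shRNAs stood between, at 1.87 to 2.70 on average. The intergenic sites nearest to SLC26A7, an anion transporter gene on chromosome 8, and LOC102723615 on chromosome 10 fell by 1.89 and 1.90 on the log2 scale. The former lay 350837 bases from the TSS of SLC26A7. At LOC102723615 the fall was deeper with shARID1A/B.2.3 (mean 1.98 ± 0.188 CPM per kb) than with shARID1A/B.4.2 (3.03 ± 0.120). The single-shRNA means there were 5.29 ± 0.445 (shARID1A.2), 3.52 ± 0.152 (shARID1A.4), 4.84 ± 0.0256 (shARID1B.2) and 2.41 ± 0.0935 (shARID1B.3).

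The largest rise was in an intron of PKHD1, the gene of autosomal recessive polycystic kidney disease (chr6:51951757-51954859). Control measured 0.713, 0.954 and 0.840 CPM per kb, shARID1A/B.2.3 measured 2.68, 3.24 and 2.73, and shARID1A/B.4.2 measured 1.46, 1.76 and 1.64. All 6 combination libraries were above Control, with shARID1A/B.2.3 the higher of the pair (log2 change 1.37, SE 0.14, FDR 1.94e-14). Far from the start of RAPGEF2, a guanine nucleotide exchange factor gene for RAP GTPases, an intergenic site (chr4:160125574-160128595) went from 2.15, 2.53 and 2.14 to 4.5, 5.87 and 4.51 and to 6.42, 6.64 and 5.51 in the same order (1.29, FDR 1.42e-18). ARID1B silencing raised it by 0.60 (FDR 1.43e-05), while the change with ARID1A silencing was 0.21 (FDR 0.267).

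The other 3 large rises were at LPHN1, MYL9 and PHF21A. The LPHN1 promoter site (chr19:14204774-14208054, 69.0% GC) measured 5.16, 3.66 and 5.14 CPM per kb in Control and 6.97 to 9.35 in the combinations (log2 change 0.86, FDR 5.61e-12). Since 53.3% of its 20-base words also occur in a broad promoter site of SUZ12P1 on chromosome 17, reads of these 2 sites may be split between them. PHF21A, which encodes a reader protein of the LSD1 corepressor complex, had a site centred 186 bases from its TSS with means of 7.32 ± 0.695 in Control, 12 ± 0.962 in shARID1A/B.2.3 and 13.4 ± 0.715 in shARID1A/B.4.2 (0.79, FDR 1.29e-13). MYL9, a myosin light chain gene, had an intronic site of low density that measured 0.827, 0.353 and 0.702 in Control and 0.867 to 1.47 in the combinations (0.81, SE 0.17, FDR 1.45e-04), with Control replicate 2 far below the others.

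**Figure D5:**
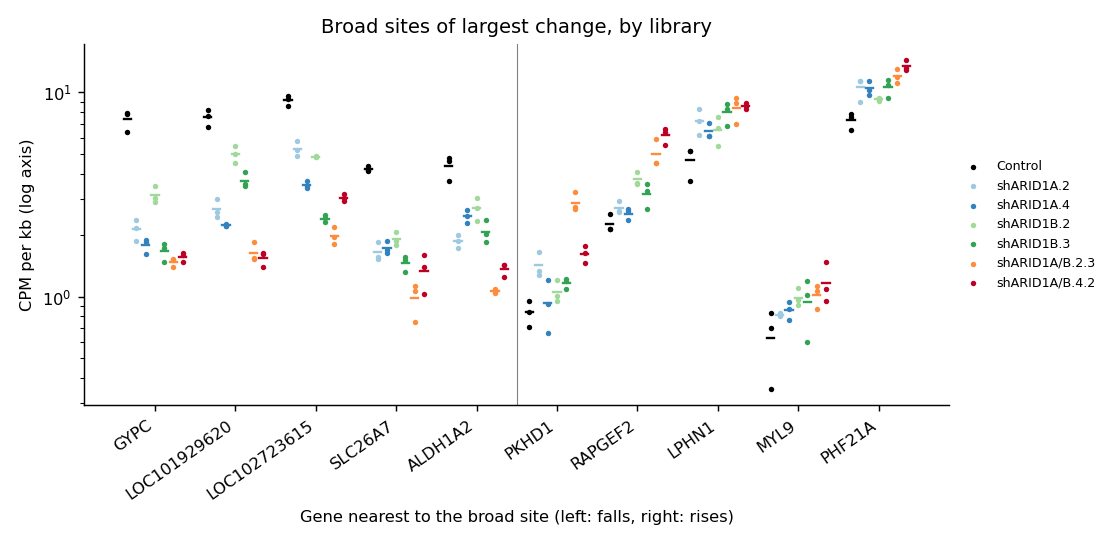
CPM per kb (log axis) of the 5 broad sites with the largest falls (left) and the 5 with the largest rises (right); points are libraries, short lines are group means of 3 and colours are the 7 groups. At GYPC the Control libraries lie at 6.42 to 7.87 and the combinations at 1.40 to 1.63, and at PKHD1 the Control libraries lie at 0.713 to 0.954 and the combinations at 1.46 to 3.24.

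Gene lists were read through their nearest broad sites, and each count can be set beside the 14.5% closed and 5.25% opened over all broad sites. The 24 adrenergic transcription factor genes, which hold the noradrenergic identity of neuroblastoma cells, included 18 with a broad site (75.0%, against 21.7% of all genes), a share that also follows from how many sites lie nearest to them. Of their 29 broad sites 6 closed, 6 opened and 17 were not called. At the HAND2 promoter (chr4:173528469-173531775) Control was 13.3 ± 0.808, shARID1A/B.2.3 14.8 ± 0.607 and shARID1A/B.4.2 15.1 ± 0.816 (0.17, FDR 0.0802), and an intergenic site near GATA3 measured 1.34 ± 0.168, 1.22 ± 0.106 and 1.47 ± 0.135 in these groups (-0.01, FDR 0.969). An intergenic site of 8.65 CPM per kb nearest to EYA1, 303287 bases from its TSS, had the largest fall of the list (-1.13, FDR 2.71e-21). Also closed were sites nearest to ZNF536 (-0.62), MYCN (-0.47), EYA1 again (-0.46) and INSM2 (-0.38). Sites nearest to HAND1, PROX1, SIX3, SOX11, PBX3 and ZNF536 opened by 0.27 to 0.41, so that ZNF536 had sites moving both ways.

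The 22 catecholamine and neuronal genes had 21 broad sites, of which 5 closed and 1, in an intron near STMN2, opened. A pair of sites nearest to CHGA, the chromogranin A gene of secretory granules, fell by 0.67 and 1.03 on the log2 scale, and sites of RET (a receptor tyrosine kinase), NCAM1 and L1CAM (neural adhesion molecules) fell by 0.56, 0.45 and 0.42. The broadest CHGA site, 5333 bases wide, was not called (0.14, FDR 0.339), nor were the broadest ones of DDC and SLC18A2 (-0.18 each). Of 16 broad sites of the mesenchymal transcription factors 1 closed and 2 opened, the closed one being nearest to TWIST1 in an intron of HDAC9 (-0.50, FDR 2.61e-04) and the opened ones at FOSL2 (0.52) and the narrower of the SNAI2 sites (0.47). The broadest PRRX1 and SNAI2 sites measured 0.22 and -0.01 without a call. Of 9 sites of adhesion and matrix genes 1 closed, at the laminin gene LAMC1 (-0.42, FDR 0.00734), and 1 opened, in an intron of CDH2, the N-cadherin gene, where Control was 9.34 ± 0.594 and the combinations 13.3 ± 0.572 and 12.6 ± 0.177 (0.48, FDR 3.32e-07). The broadest sites nearest to ITGA2 and CDH11 were not called (-0.22 and -0.11).

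Immediate early genes, which respond to stimuli within minutes, had 8 broad sites at 7 of 18 genes, and 7 of the 8 opened. The median Control density of the 8 was 10.7 CPM per kb. Among broad sites in general, 17.0% opened in the highest density class and 29.9% at promoters. JUND, which encodes an AP-1 subunit, measured 10.3, 9.48 and 11.1 CPM per kb in Control, 18.5, 16.9 and 16.6 in shARID1A/B.2.3 and 18.1, 17.9 and 18.5 in shARID1A/B.4.2, with no overlap (log2 change 0.79, SE 0.08, FDR 1.82e-13). JUNB rose by 0.57 (FDR 7.63e-08), JUN by 0.31 (FDR 9.56e-04), KLF6 by 0.43, KLF4 by 0.31 and both NR4A2 sites by 0.28 and 0.29, and the MYC site did not pass (0.18, FDR 0.0529). These sites were mostly at gene starts, 6 of 8 being centred within 1000 bases of a TSS, and fewer were called with 3 of the other scalings: with TMM factors from promoter sites 3 of the 8 opened, with GC offsets 5 and with abundance-trended offsets 2, and none closed.

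Other lists held few broad sites. Of 11 at BAF, PBAF and ncBAF subunit genes 1 closed (DPF3, -0.73) and 3 opened, at ARID1B itself, ARID2 and BCL7A. The ARID1B site at the gene start (chr6:156776532-156780619) measured 10.4, 9.12 and 10.3 CPM per kb in Control, 12.1, 11.1 and 11.9 in shARID1A/B.2.3 and 12.7, 12.4 and 13.2 in shARID1A/B.4.2 (0.29, FDR 0.00137); shRNAs act on the transcript, so this is no check of silencing. The broadest sites of SMARCA2 and DPF3 were not called (-0.08 and -0.10). HOX genes had 9 broad sites among the 77 tested sites nearest to them. That share, 11.7% against 2.92% over all genes, was the highest of the lists. Of the 9, edgeR called 0, with HOXA5 and HOXA11 at 0.29 each (FDR 0.0277 and 0.0460) and HOXA2 at 0.11. Other homeobox and developmental factor genes had 41, of which 2 closed and 5 opened. Among them an intergenic site near SIX2 fell from 4.4, 3.73 and 4.35 CPM per kb to 1.40, 1.11 and 1.53 and to 1.47, 1.26 and 1.59 (-1.59, FDR 9.20e-24), the PAX6 promoter rose (0.36, FDR 4.89e-05) and the DLX2 site changed by -0.19 (FDR 0.155). Cell cycle genes had 6, of which the CCND2 and CDK6 promoter sites opened (0.41 and 0.22) and E2F3 did not (0.08, FDR 0.441). The CDK6 direction turned with TMM factors from promoter sites (-0.01) and with abundance-trended offsets (-0.12). Housekeeping genes had 3, opened at GAPDH (0.35) and at the promoter of YWHAZ (0.38) and not called at the broader distal YWHAZ site (-0.07). Replication-dependent histone genes had 4, of which 2 opened, at HIST1H2AK and HIST2H2AC. Long non-coding and antisense genes had 2877 broad sites, of which 441 closed and 100 opened with a median of 0.00.

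Shares of reads are given as percent of the reads in all consensus sites. The share in all broad sites was 11.3%, 10.8% and 11.4% in the Control libraries. It was 11.2%, 10.8% and 11.3% with shARID1A/B.2.3, and 10.8%, 10.8% and 10.9% with shARID1A/B.4.2. The single-shRNA libraries lay between 10.8% and 11.3%. These ranges overlapped, but the total includes the block around MYCN, whose share varied between Control libraries. Outside the block around MYCN the share was 8.15% ± 0.040 in Control, 8% ± 0.028 with shARID1A/B.2.3 and 8.14% ± 0.019 with shARID1A/B.4.2. There all 3 libraries of shARID1A/B.2.3 (7.97% to 8.02%), shARID1A.2 (7.93% to 8.06%) and shARID1B.3 (7.93% to 8.07%) lay below the Control libraries (8.11% to 8.19%), a small difference that was not tested, and those of shARID1A/B.4.2 overlapped with Control.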

How the data were processed

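ATAC-seq libraries numbered 21. The authors deposited raw read counts for each library over 1 consensus set of 367900 sites on GRCh38, a normalized signal column per library (not used here), their own differential results (log2 ratios and p-values, not used here) and an annotation of nearest genes, with positions, widths and distances. The file header names HOMER for the annotation. For the aligner, the peak caller and a Tn5 shift of reads, tool and setting were "not given in the sources used here". DESeq2 is named in the submitters' processing notes without a version. Library totals over the sites were 16140029 to 44472230 counts, which sets the precision; the common biological coefficient of variation was 0.0817. Columns named NSC were taken as Control, and columns of per-sample values left unmapped numbered 0.

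The quasi-likelihood test of edgeR 4.0.16 (R 4.3.3) was run on the counts, with TMM scaling, filterByExpr (minimum count 10), all groups in 1 model without covariates, and Benjamini-Hochberg adjustment over 357029 sites; calls are at FDR under 0.01. The averaged combined contrast weights both combinations equally. Standard errors come from the test statistic. When tested on simulated data, median fitted changes lay close to those put in, and most changes smaller than a doubling or halving were not called. The simulated sites were drawn at random from all tested sites, most of them shorter ones, and few were changed. That rate therefore does not describe broad sites, whose median standard error was 0.12 against 0.23 for shorter sites. For left-out libraries the dispersion trend was estimated on every 10th site. Like shorter sites were taken in 5 classes of Control CPM per kb. Same-numbered libraries of Control and shARID1A/B.2.3 deviated together from their group means (r = 0.147, 0.418 and 0.15), a pairing seen in the data and not stated in the labels. Alternatives were DESeq2 1.42.0, other scalings, filters, thresholds and widths, and left-out libraries. Sequence was read from GRCh38, which held 100 of the 101 chromosome and contig names and on which 0 sites ran past a chromosome end; 20-base words were compared on both strands. Named sites were the 10 broadest (1 per gene), the 5 largest falls and rises called in the average and in each combination with no overlap of libraries, the 5 genes nearest to most broad sites, the broadest site of up to 3 genes per list, and those at the width limit; further members of the lists, and sites of the block, were chosen after their values were seen. Some named sites are not reported here. The members and lists were chosen with earlier results of these data known.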

Additional observations from a re-analysis of the deposited data

Results flagged for a closer look

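At 4 of the named broad sites the 2 combinations differed from each other in a direct contrast (edgeR, FDR under 0.01). The site near LOC102723615 changed by -2.22 with shARID1A/B.2.3 and by -1.59 with shARID1A/B.4.2, a difference of -0.63 (FDR 1.34e-05). The PKHD1 site rose by 1.79 and 0.95, a difference of 0.84 (FDR 5.96e-07). In the block around MYCN, the MYCNOS site of 11017 bases changed by 0.32 and 0.08, a difference of 0.24 (FDR 0.00499), and the LOC101928129 site by 0.42 and 0.19, a difference of 0.23 (FDR 0.00877).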

How the results depend on the processing

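The main limits are depth and scaling: shorter sites carry fewer reads than broad ones, calls at single sites follow the scaling, and copy number, mappability and the reads' placement in repeats were not measured. Averaged over both combinations and taken over all annotations, broad sites closed more often than they opened under the alternatives of this section; for shARID1A/B.2.3 alone the balance turned with abundance-trended offsets (11.8% closed, 13.6% opened), whereas broad promoters opened more often with the TMM, GC, abundance-trended and total-count scalings and closed more often with promoter TMM factors, and the causes of the differences were not tested.

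With an FDR under 0.05 the shares opened were 8.46% (combined), 7.51% (shARID1A/B.2.3), 4.63% (ARID1A), 3.85% (ARID1B) and 4.52% (combined against single). Requiring a log2 change of at least 1 left 1.93%, 3.08%, 1.57%, 0.268%, 0.173% and 0.0192% closed and 0.0288%, 0.0479%, 0.0479%, 0%, 0.00959% and 0% opened for combined, shARID1A/B.2.3, shARID1A/B.4.2, ARID1A, ARID1B and combined against single. At a width of at least 4000 bases, 8.84%, 9.46%, 5.70%, 4.44%, 3.25% and 4.90% closed in the same order. TMM factors from promoter sites gave 29.7% (combined), 30.8% (shARID1A/B.4.2), 18.5% (ARID1A), 11% (ARID1B) and 15.6% (combined against single) closed, 1.10%, 1.41%, 1.19%, 0.441%, 0.757% and 0.527% opened, and medians of -0.23, -0.15, -0.33, -0.21, -0.16 and -0.06, in the order of the 6 contrasts. Abundance-trended offsets gave 9.54% (combined), 13.6% (shARID1A/B.2.3) and 6.62% (combined against single) opened, with medians of 0.11, 0.15, 0.05 (shARID1A/B.4.2), 0.02 (ARID1A) and 0.08 (combined against single). Total counts alone gave 6.62% opened and a median of 0.04 for shARID1A/B.2.3, a median of -0.04 for shARID1A/B.4.2 and 3.15% opened for combined against single. Fitting only the compared groups gave 2.03% opened for shARID1A/B.2.3, and no filter gave a median of 0.03 for shARID1A/B.4.2.

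For broad minus like shorter sites, classes on total Control CPM gave -20.0 and -5.31 percentage points closed and opened and a median difference of 0.14. Promoters alone gave -0.0180 points closed, other sites 5.39, promoter TMM factors 14.7 closed and 0.368 opened, and classes on all libraries a median difference of -0.05.

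The MYCNOS site of 11017 bases turned to -0.03 with promoter TMM factors and -0.56 with abundance-trended offsets, LOC101928129 to -0.39 with the latter, CDK6 to -0.01 and -0.12, and E2F3 to -0.30 with the latter. Of 1176 comparisons over 56 named sites, 1076 kept direction and side of the threshold, 70 lost and 24 gained the call.

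With 1 library left out, combined silencing closed 11.8% to 15% and opened 3.19% to 5.88% (medians -0.01 to 0.00), shARID1A/B.2.3 12.9% to 16.8% and 2.59% to 3.41% (-0.04 to -0.01), shARID1A/B.4.2 7.93% to 9.96% and 4.07% to 5.54% (-0.01 to 0.00), ARID1A 5.43% to 7.31% and 0.738% to 3.01% (-0.02), ARID1B 3.72% to 4.93% and 0.834% to 2.39% (-0.03 to -0.02), and combined against single 7.85% to 9.99% and 1.01% to 1.99% (0.00 to 0.01). The call of 12 named sites changed with a left-out library.

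Same-number correlations of deviations ran from -0.239 to 0.418, with 10 of 63 pairs over 0.1. By the rule that every pair be over 0.1, the numbers paired the libraries for shARID1A/B.2.3 and Control (0.147, 0.418 and 0.15) and for no other comparison with Control. For shARID1A/B.2.3 the fit with the block gave 16.2% closed and 4.42% opened, and the block alone changed no call at a named site in the averaged contrast. With the replicate number as a block, 15% closed and 5.95% opened after combined silencing, and 10.4% and 2.20% for combined against single. Without the block of sites around MYCN, an alternative chosen after seeing the data, 14.5% closed and 5.06% opened.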
